A study of Mus musculus with 32 samples.

Results

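The PGC-1 coactivators, the estrogen-related receptors (ERR), the peroxisome proliferator-activated receptors (PPAR) and the factors that act with them set much of the oxidative gene programme of muscle. The messages of 10 such genes were followed here in denervated gastrocnemius (GAS) muscle: the coactivators Ppargc1a and Ppargc1b, the receptors Esrra, Esrrb and Esrrg, the receptors Ppara and Ppard, the factors Nrf1 and Tfam, and the muscle regulator Perm1. They were taken by gene symbol and make up 10 of 33397 genes in the expression table. RNA was sequenced from 32 GAS muscles, 4 at 0 d and 4 each at 1, 3, 5, 7, 14, 21 and 28 d post denervation. The muscles came from male C57BL/6 mice (C57BL/6J in the study's methods) aged 6 to 8 weeks whose sciatic nerve was cut, and the labels name no drug or mutant allele in any group. The labels give nerve transection as the treatment of all 8 groups, the 0 d group included, while the study's methods describe a sham-operated, non-denervated reference. The 4 columns of the 0 d group carry the letter C and a number but no day, and were placed there because the other 28 columns name the other 7 days.

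PGC-1α and PGC-1β do not bind DNA themselves. They dock on nuclear receptors and other factors, ERRα and ERRγ among them, and raise transcription of genes for the respiratory chain, the citric acid cycle and fat oxidation. NRF1 drives nuclear genes of the respiratory chain and the Tfam gene, and TFAM packages mitochondrial DNA and acts in its transcription. In skeletal muscle, PERM1 is induced by PGC-1 and ERR and feeds back on the same genes, and ERRγ is known as a receptor of oxidative, slow fibres. PPARα and PPARδ respond to fatty acids and switch on genes of lipid uptake and oxidation.

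The start regions of 2 genes are shown because Perm1 had the largest fall of the 10 genes and Ppargc1a codes for the coactivator after which the pathway is named. RefSeq held a window from 250 bases before to 50 bases after the gene start (GRCm38.p6) for 9 of the 10 genes (all but Ppargc1b), in 14 windows. Each was searched on both strands for 6 motifs: AAGGTCA (the ERR half-site), the MEF2 motif, the palindromic NRF1 motif, TGACGT (the core of a cAMP response element), CCGGAAG (ETS factors, GABP among them) and CAGCTG (an E-box). The Perm1 region is chr4:156215677-156215867 on the plus strand and the Ppargc1a region is chr5:51567727-51567975 on the minus strand. Both lie wholly upstream of the gene as GENCODE annotates it, and are written 5′ to 3′ along the gene, with the matched letters in capitals.
Perm1: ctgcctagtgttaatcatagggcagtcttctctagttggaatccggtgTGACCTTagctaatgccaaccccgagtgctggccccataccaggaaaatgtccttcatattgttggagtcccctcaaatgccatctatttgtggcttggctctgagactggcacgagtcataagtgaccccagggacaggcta
Ppargc1a: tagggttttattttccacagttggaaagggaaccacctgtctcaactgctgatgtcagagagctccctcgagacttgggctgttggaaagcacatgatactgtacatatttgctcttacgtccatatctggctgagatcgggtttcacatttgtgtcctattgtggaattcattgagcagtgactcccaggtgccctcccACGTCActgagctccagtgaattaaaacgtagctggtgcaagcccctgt
The capitals in Perm1 are the ERR half-site read on the other strand, 137 bases before the annotated gene. The ERR half-site is present in 4.72% of the 32851 RefSeq windows, and Perm1 was the 1 gene of the 9 searched that held it. The capitals in Ppargc1a are the core of a cAMP response element on the other strand, 44 bases before the annotated gene, a motif found in 7.51% of windows.

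The windows of Esrrg and Tfam also held a match, and 30 bases around each are shown because these genes behaved differently from Perm1. The Esrrg bases are chr1:187608974-187609003 on the plus strand, in an intron of the annotated gene and just before a RefSeq start. The Tfam bases are chr10:71238073-71238102 on the minus strand, within an annotated exon.
Esrrg: taaaactttgCTATTTATAGtctacgcccg
Tfam: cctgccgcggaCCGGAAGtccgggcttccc
The capitals mark the MEF2 motif in Esrrg, found in 3.69% of windows, and the ETS motif in Tfam, found in 8.86%. Of the other genes, Ppara held the NRF1 motif (4.60% of windows), and Esrra, Esrrb and Ppard held the E-box (16.3%). No 2 matches overlapped. A match states only that these letters are present.

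Libraries held between 14199902 and 17561584 fragments, recovered from the deposited values and the exon lengths. The labels' extraction text names retinas, so tissue markers were checked: the 7 retinal genes summed to at most 0.547 FPKM (fragments normalised to exon length and library size) in any sample, whereas the 7 muscle fibre genes summed to between 23072 and 42995 FPKM. A single 3 d muscle, sample a, stood apart from its group on the first principal component of all expressed genes (-19.4, against 0.75 to 6.25 for the other 3), and results that rest on it are given with and without it. Schwann cell genes (5 genes) summed to 76.3 to 169 FPKM at 0 d and 7.06 to 11.6 FPKM at 21 d. Macrophage genes (8 genes) summed to 159 to 233 FPKM at 0 d and 314 to 1107 FPKM at 3 d. The muscle fibre sum was 40038 to 42995 FPKM at 0 d and 23072 to 26762 FPKM at 3 d. Each time point was compared with 0 d by limma on log2(FPKM + 1) over 22071 genes, and a gene was called changed when its Benjamini-Hochberg adjusted p was below 0.05 and its difference reached 1.5-fold on that scale.

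The deposited scaling moved the typical gene. Over 11943 genes with a mean of at least 1 FPKM, the median difference from 0 d was 0.12 (1 d), 0.20 (3 d) and between 0.24 and 0.32 at 5 to 28 d on the log2 scale. After median-ratio scaling, which centres the typical gene, these medians lay between -0.02 and 0.03. Over all genes, the deposited values gave 1400 higher and 550 lower calls at 1 d, which became 913 and 1032 once the typical gene was centred. At 3 d the split of 2924 to 1330 became 1987 to 2020, and the 28 d split of 3143 to 906 became 1450 to 1789. Calls of the 10 genes that depend on the scaling are therefore given in both.

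All 10 genes passed the filter on low values and all 10 varied over the time course (limma F test, adjusted p between 1.93e-16 for Esrrg and 0.00337 for Tfam). Of all genes tested, 63.2% passed the same F test. Against 0 d, 5 of the 10 were called at 1 d, 4 lower and 1 higher, where 8.84% of all genes were called (2.49% lower and 6.34% higher). The 3 d muscles had 6 of the 10 lower, against 6.03% of all genes lower, 13.2% higher and 19.3% in either direction. For 5 d the count was 4 lower, where 3.86% of all genes were lower, 14.9% higher and 18.8% either way. The 7 d muscles had 6 lower (4.1% of all genes, with 15.4% higher and 19.5% either way). After 14 d there were 5 lower, against 3.83% lower, 14.6% higher and 18.5% either way. Both 21 and 28 d had 5 lower and 1 higher. Of all genes, 3.93% were lower and 11.8% higher (15.7% together) at 21 d, and 4.1% lower and 14.2% higher (18.3% together) at 28 d. The median difference of the 10 genes lay between -0.47 and -0.75 on the log2 scale over these 7 comparisons, where the median of all genes tested lay between 0.03 and 0.15. The 4 values per group did not overlap 0 d for 8, 7, 7, 7, 6, 8 and 7 of the 10 genes, in order of time, and for 28.5%, 35.3%, 44.8%, 40.9%, 44.9%, 42.9% and 45.7% of all genes. All 7 comparisons share their 4 muscles at 0 d.

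Median-ratio scaling left 5 of the 10 lower at 1 d and 6 lower at each later time, with Ppard higher at 1 d and Esrrg at 21 d. Of all genes this scaling called 4.68% lower and 4.14% higher at 1 d (8.81% either way), 9.15% and 9% at 3 d (18.2%), 7.68% and 6.7% at 5 d (14.4%), and 7.92% and 7.15% at 7 d (15.1%). Later it called 7.53% lower and 6.56% higher at 14 d (14.1%), 7.15% and 6.43% at 21 d (13.6%), and 8.11% and 6.57% at 28 d (14.7%). Pooling 14, 21 and 28 d against 0 d gave 5 of the 10 lower and 1 higher, where 4.26% of 20243 genes were lower, 14.5% higher and 18.8% either way, and after median-ratio scaling 6 of the 10 lower, with Esrrg no longer called higher (0.30, limma adjusted p = 0.179), where 8.15% of genes were lower, 6.88% higher and 15% either way.

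From 1 to 3 d Esrrg was called higher and Ppard and Perm1 lower, among 10.6% of all genes (6.63% higher, 3.93% lower). The next step, to 5 d, had Esrrg and Perm1 higher and Ppargc1a lower, among 5.76% (3.72% higher, 2.05% lower). None of the 10 was called from 5 to 7 d (0.657% of all genes, 0.449% higher and 0.208% lower), from 7 to 14 d (0.634%, 0.376% and 0.258%) or from 21 to 28 d (0.199%, 0.159% and 0.0408%). At an unadjusted limma p below 0.05 those 3 steps held 4 of the 10 (Perm1, Ppargc1b, Esrra and Esrrb, all lower), 1 (Esrrg, higher) and 0, and limma-voom also called 0 in each. The share of all genes at that unadjusted cut was not computed. With an adjusted p below 0.05 and no fold threshold, 0 of the 10 passed in each, where 1.96%, 2.54% and 0.476% of all genes did. From 14 to 21 d Esrrg was called higher, where 0.453% of all genes were called, 0.0906% higher and 0.362% lower. Over the longer span from 3 to 28 d Esrrg was higher and Ppargc1a lower, among 12% of all genes (7.46% higher, 4.54% lower), and from 7 to 28 d Esrrg was higher, among 2.96% (1.5% higher, 1.46% lower).

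**Figure D1:**
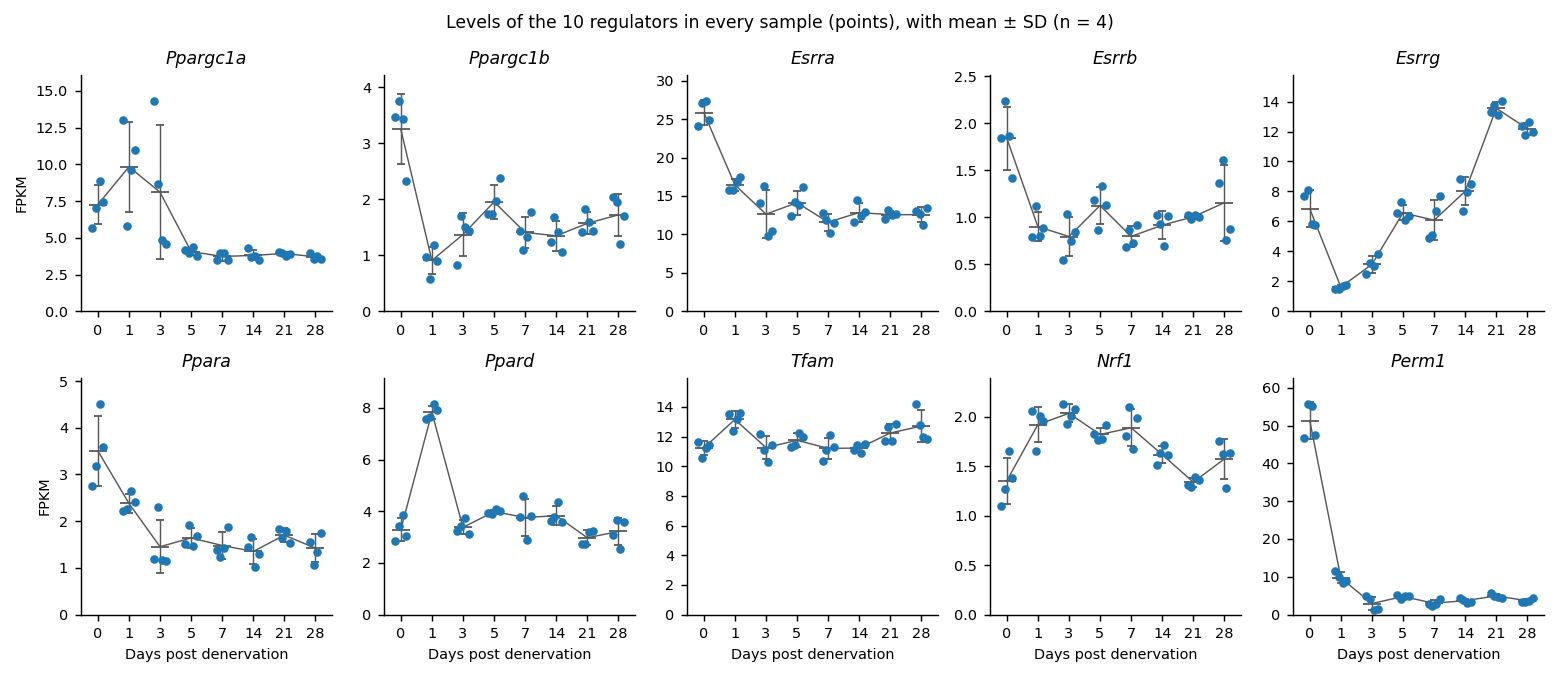
Level of each of the 10 genes (FPKM, axis from 0) in each of the 4 muscles per time point (points), with the mean and SD; time points are evenly spaced. Perm1 fell from 46.7 to 55.7 FPKM at 0 d to below 12 FPKM at every later time, Esrrg dipped at 1 d and stood above its 0 d level at 21 and 28 d, and Ppard peaked at 1 d.

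Perm1, the muscle regulator induced by PGC-1 and ERR, had the highest level of the 10 messages at 0 d and fell at every time after denervation. The gene lies at chr4:156215868-156221307 on the plus strand (GRCm38, as are all positions here). It was 46.7, 55.7, 55.2 and 47.5 FPKM at 0 d. At 1 d it was 11.5, 10.05, 8.27 and 8.86 FPKM, and no sample of any later time overlapped the 0 d group. The mean was 5.30 times lower at 1 d and 17.6 times lower at 3 d, with differences on the log2(FPKM + 1) scale of -2.30 ± 0.20 (SE) and -3.86 ± 0.20 (limma adjusted p = 4.27e-10 and 1.98e-15). At 3 d the 4 muscles were unequal, at 4.84, 4.06, 1.15 and 1.59 FPKM, with samples a and b above c and d. The mean of the 3 muscles without sample a was 2.27 ± 1.57 FPKM (SD), and the difference from 0 d was then -4.10. Later means were 4.78 ± 0.50 FPKM (5 d), 2.97 ± 0.85 (7 d), 3.69 ± 0.50 (14 d), 4.92 ± 0.57 (21 d) and 3.64 ± 0.41 (28 d; SD, n = 4 each), and the gene was called lower at each. These levels were between 10.4 and 17.3 times below the 0 d mean. The libraries held at least 73 Perm1 fragments, so the low levels rest on counted fragments. The 3 d level was below the 1 d level (difference -1.57, adjusted p = 3.64e-07). The 5 d level was above the 3 d level as deposited (0.69, adjusted p = 0.0124), but not after median-ratio scaling (0.55, adjusted p = 0.0810), nor without 3 d sample c (0.44, adjusted p = 0.0796) or sample d (0.53, adjusted p = 0.0687). Without 3 d sample a this rise was larger (0.92, limma adjusted p = 5.23e-04), and 14 of 18 alternatives kept the call.

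The 2 PGC-1 coactivators parted at 1 d. Ppargc1b (chr18:61298136-61400431, minus strand), coding for PGC-1β, was 3.48, 3.76, 3.43 and 2.34 FPKM at 0 d and 0.97, 0.59, 1.18 and 0.90 FPKM at 1 d. The groups did not overlap, the mean was 3.58 times lower, and the difference on the log2(FPKM + 1) scale was -1.15 ± 0.13 (SE, limma adjusted p = 5.06e-08). Ppargc1a (chr5:51454250-51567726, minus strand), coding for PGC-1α, was 5.70, 7.00, 8.89 and 7.44 FPKM at 0 d and 13.001, 5.78, 9.61 and 11.0 FPKM at 1 d. Here the groups overlapped, and the difference of 0.36 had an interval from -0.07 to 0.78 (adjusted p = 0.224).

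At 3 d Ppargc1a was spread more widely than at any other time, at 14.3, 8.70, 4.84 and 4.58 FPKM. Sample a was above every 0 d muscle and samples c and d were below every one. From 5 d on the spread closed: Ppargc1a was 4.14, 3.97, 4.37 and 3.80 FPKM at 5 d and 3.95, 3.54, 3.76 and 3.59 FPKM at 28 d, with all 20 muscles from 5 d on between 3.47 and 4.37 FPKM. All of these lay below the lowest 0 d muscle. Means were 1.78 to 1.96 times below the 0 d mean, with differences of -0.69 at 5 d (adjusted p = 0.00684) to -0.80 at 28 d (adjusted p = 0.00203). Whether the level dropped before or after 3 d depended on a single library. With all samples, Ppargc1a was not called between 1 and 3 d (-0.33, interval -0.75 to 0.10, adjusted p = 0.261) and fell from 3 to 5 d (-0.72, adjusted p = 0.0105). Without 3 d sample a, it fell from 1 to 3 d (-0.62, adjusted p = 0.00491), and the step from 3 to 5 d was -0.43 (adjusted p = 0.0788). Likewise, the 28 d level was below the 3 d level with all samples (-0.83, adjusted p = 0.00210), and the difference missed the 1.5-fold threshold without sample a (-0.53, adjusted p = 0.0153).

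Later means of Ppargc1b lay between the 1 d and the 0 d means, at 1.37 ± 0.38 FPKM (3 d), 1.96 ± 0.30 (5 d), 1.41 ± 0.28 (7 d), 1.35 ± 0.27 (14 d), 1.57 ± 0.20 (21 d) and 1.72 ± 0.38 (28 d; SD, n = 4 each). No step between neighbouring times after 1 d was called for this gene. It was called lower than 0 d at each of these times except 5 d, where the difference of -0.52 (adjusted p = 0.00163) missed the 1.5-fold threshold. After median-ratio scaling it passed there too (-0.81, adjusted p = 1.51e-06). The call at 28 d (-0.64, adjusted p = 1.63e-04) missed the fold threshold without 0 d sample 2 (-0.58) or 28 d sample c (-0.54).

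Within a sample the ratio of 2 genes does not depend on the scaling between libraries. Ppargc1a exceeded Ppargc1b by 1.64 to 3.19 times at 0 d, by 8.13 to 13.4 times at 1 d and by 3.18 to 17.2 times at 3 d, or 3.18 to 5.09 without sample a, a range that just overlapped 0 d. At 5 to 28 d the ratio was 1.60 to 3.62, a range that overlapped 0 d. Ppargc1a made up 68.9% of the summed FPKM of the pair at 0 d, 91.3% at 1 d and 68.5% at 28 d (means of 4). These ratios are descriptions and were not tested.

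Of the 3 ERR genes, Esrra and Esrrb had means below 0 d at every later time, and Esrrg took a different course. Esrra (chr19:6910977-6921813, minus strand) codes for ERRα, a main partner of PGC-1α on oxidative genes, and was the second most abundant of the 10 messages at 0 d. It was 24.1, 27.0, 27.4 and 24.9 FPKM at 0 d and 15.7, 15.8, 16.8 and 17.4 FPKM at 1 d, when it was 1.57 times lower with no overlap (-0.62 ± 0.10 SE, limma adjusted p = 2.51e-05). It reached 12.6 ± 3.09 FPKM at 3 d and 11.6 ± 1.08 FPKM at 7 d, and was 12.6 ± 0.98 FPKM at 28 d (SD, n = 4). Esrra was called lower at all 7 time points, with a smallest difference of -0.62 at 1 d and a largest of -1.09 at 7 d, which is 2.23 times lower in mean FPKM. None of its steps between neighbouring times after 1 d was called. The 1 d call missed the fold threshold when the values were rescaled to TPM (-0.53, adjusted p = 0.00102) or without mitochondrial genes (-0.57, adjusted p = 4.31e-05). An antisense neighbour, Trmt112, shares 73 bases with Esrra exons, 1.66% of its exon length.

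Esrrg (chr1:187608791-188214885, plus strand) codes for ERRγ and moved down and then up. It was 7.71, 8.08, 5.81 and 5.77 FPKM at 0 d and 1.51, 1.51, 1.69 and 1.78 FPKM at 1 d, 4.23 times lower in the mean and far outside the 0 d range (-1.57 ± 0.11, adjusted p = 5.20e-12). At 3 d it was 2.48, 3.22, 3.03 and 3.82 FPKM, above every 1 d muscle and still below every 0 d muscle. The rise from 1 to 3 d was called (0.65, adjusted p = 2.70e-05), though without 3 d sample d it missed the fold threshold (0.57). Means of 6.57 ± 0.50 FPKM at 5 d, 6.08 ± 1.34 at 7 d and 8.01 ± 0.94 at 14 d overlapped the 0 d range and were not called against it. After median-ratio scaling the 5 and 7 d differences were -0.38 (adjusted p = 0.0101) and -0.49 (adjusted p = 0.00135), short of 1.5-fold, and the 14 d difference turned from 0.21 to -0.15 (adjusted p = 0.130 and 0.360).

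At 21 d Esrrg was 13.3, 13.8, 13.1 and 14.05 FPKM, and at 28 d it was 12.4, 11.8, 12.7 and 11.97 FPKM. All 8 muscles were above every 0 d and 14 d muscle. Against 0 d the differences were 0.90 at 21 d (adjusted p = 9.36e-08) and 0.76 at 28 d (adjusted p = 1.40e-06). After median-ratio scaling they were 0.63 (adjusted p = 7.51e-05) and 0.42 (adjusted p = 0.00491), so the 21 d call held and the 28 d call missed the 1.5-fold threshold. The step from 14 to 21 d was called under both scalings, at 0.70 as deposited (adjusted p = 4.96e-04). At that step 0.0906% of all genes were called higher, 20 of 22071. With 14, 21 and 28 d pooled against 0 d, Esrrg was called higher as deposited (0.62, adjusted p = 0.00311), among 14.5% of 20243 genes, but not after median-ratio scaling (0.30, adjusted p = 0.179) nor without 0 d sample 3 (0.56, adjusted p = 0.0163) or sample 4 (0.56, adjusted p = 0.0169). Summed levels of the 8 slow and oxidative fibre genes were 776 to 1641 FPKM at 0 d, 320 to 420 FPKM at 1 d and 118 to 351 FPKM at 3 d. They were 1031 to 1292 FPKM at 21 d and 1868 to 2887 FPKM at 28 d. Their part in the course of Esrrg was not tested.

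Esrrb (chr12:86361117-86521628, plus strand), coding for ERRβ, was the scarcest ERR message, at 1.85, 2.24, 1.86 and 1.42 FPKM at 0 d. Its means were 0.90 ± 0.15 FPKM (1 d), 0.80 ± 0.20 (3 d), 0.80 ± 0.11 (7 d) and 1.16 ± 0.40 (28 d; SD, n = 4 each). Adjusted p was below the threshold at all 7 time points, but only the 3 d and 7 d differences (-0.66 each, adjusted p = 8.03e-06 and 9.00e-06) reached 1.5-fold on the log2(FPKM + 1) scale, which understates changes of low genes. With a pseudocount of 0.1 or after median-ratio scaling it was called lower at all 7. The libraries held between 51 and 202 Esrrb fragments.

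Esrrg stood at 0.21 to 0.32 of Esrra at 0 d and at 0.0952 to 0.102 at 1 d. The ratio then climbed to 0.39 to 0.53 at 5 d, 1.05 to 1.11 at 21 d and 0.89 to 1.13 at 28 d, and did not overlap 0 d at 1 d or from 5 d on. Of the summed FPKM of the 3 ERR genes, Esrrg gave 19.8% at 0 d, 8.53% at 1 d and 49.96% at 21 d, while Esrra gave 74.9%, 86.7% and 46.3%. The sum itself was 34.5 ± 2.25 FPKM at 0 d, 16.6 ± 3.03 at 3 d and 25.9 ± 0.92 at 28 d (SD, n = 4). As above, these shares are free of the scaling between libraries and were not tested.

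**Figure D2:**
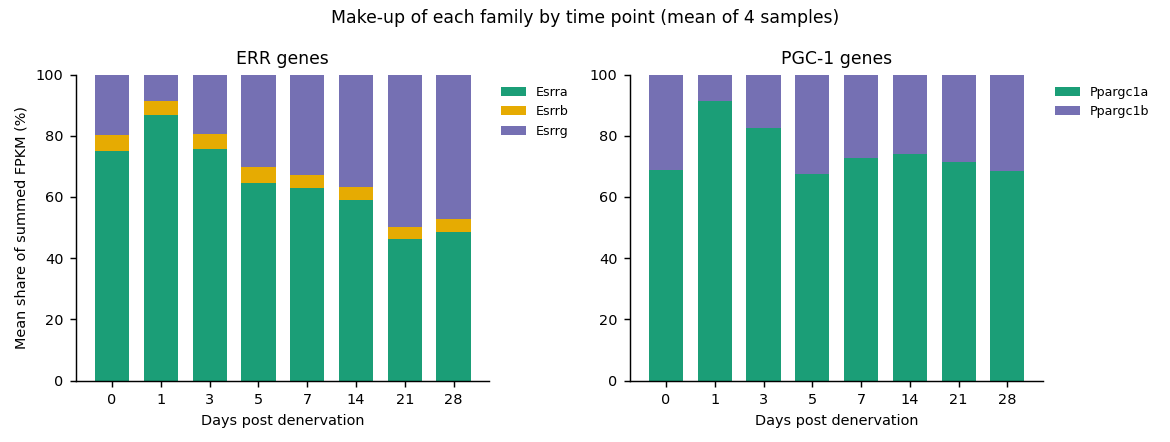
Mean share (%) of each gene in the summed FPKM of its family, for the 3 ERR genes (left) and the 2 PGC-1 genes (right), 4 muscles per time point. Esrrg grew from 19.8% of the ERR sum at 0 d to 49.96% at 21 d, and Ppargc1a made up 91.3% of the PGC-1 sum at 1 d.

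Of the 2 PPAR genes, Ppard was called higher at 1 d and Ppara lower from 3 d on. Ppard (chr17:28232700-28301474, plus strand), coding for PPARδ, was 2.85, 3.42, 3.84 and 3.06 FPKM at 0 d and 7.57, 7.65, 8.15 and 7.93 FPKM at 1 d. All 4 muscles at 1 d were above all muscles of every other time point, with a mean 2.38 times the 0 d mean (1.05 ± 0.09 SE, limma adjusted p = 4.68e-10). At 3 d it was back at 3.22, 3.44, 3.73 and 3.11 FPKM, within the 0 d range, and the drop from 1 d was called (-1.01, adjusted p = 6.22e-10). Ppard was not called against 0 d at any later time (differences between -0.11 and 0.22). After median-ratio scaling its differences at 3 to 28 d were all below 0, the largest being -0.35 at 21 d (adjusted p = 0.00133), and none reached 1.5-fold.

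Ppara (chr15:85734983-85802819, plus strand), coding for PPARα, was 2.76, 3.18, 4.51 and 3.58 FPKM at 0 d and 2.22, 2.25, 2.65 and 2.40 FPKM at 1 d. The 1 d muscles were all below the 0 d range, but the difference of -0.40 (adjusted p = 0.0145) did not reach 1.5-fold. It was called with limma-voom on the recovered fragments (-0.72, adjusted p = 5.50e-04). At 3 d Ppara was 1.19, 2.31, 1.17 and 1.14 FPKM, with sample b about as high as the 1 d muscles. It was called lower at each time from 3 to 28 d, by 2.06 to 2.60 times in mean FPKM, and was 1.42 ± 0.29 FPKM at 28 d (SD, n = 4; -0.89, adjusted p = 8.95e-07). The ratio of Ppard to Ppara was 0.85 to 1.07 at 0 d and 3.07 to 3.41 at 1 d. It remained above 0 d in every later muscle, at 1.49 to 4.26.

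**Figure D3:**
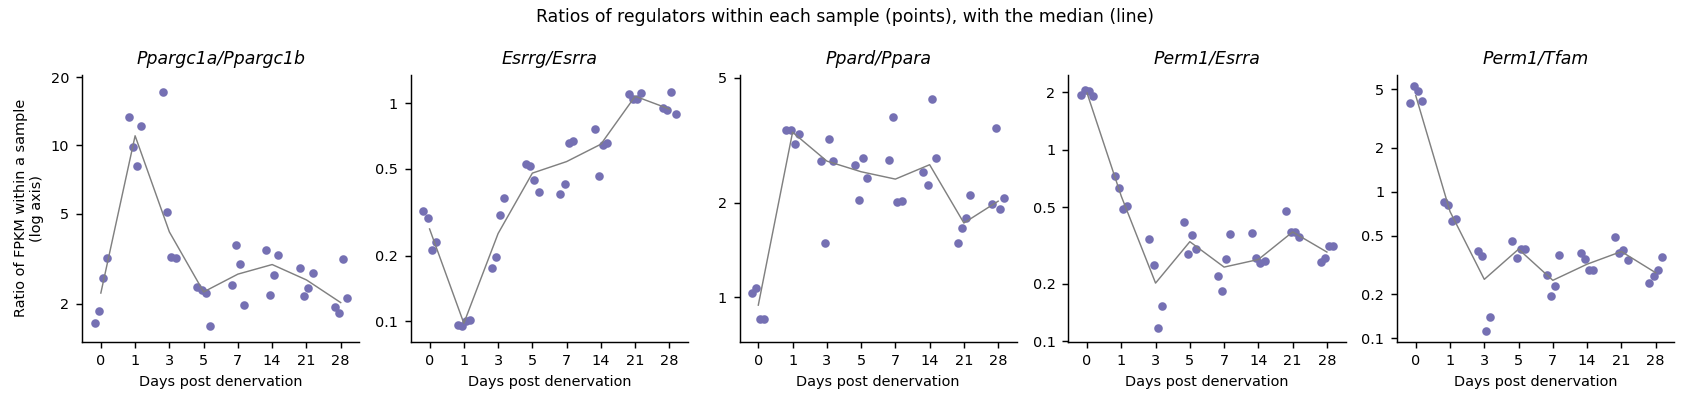
Ratio of FPKM of pairs of genes within each muscle (points, log axis) with the median at each time point (line). Ppargc1a/Ppargc1b was 8.13 to 13.4 at 1 d against 1.64 to 3.19 at 0 d, Esrrg/Esrra went from 0.0952 to 0.102 at 1 d to 1.05 to 1.11 at 21 d, and both Perm1 ratios were below 0 d at every later time.

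Neither Tfam nor Nrf1 was called against 0 d by limma as deposited, although each had an adjusted p below 0.05 at some times. Tfam (chr10:71225464-71238280, minus strand) was 11.7, 10.6, 11.3 and 11.4 FPKM at 0 d and 13.5, 12.4, 13.2 and 13.6 FPKM at 1 d. The 1 d muscles were all above the 0 d muscles by a mean 1.17 times (0.21, interval 0.10 to 0.32, limma adjusted p = 0.00410), short of the fold threshold, and after median-ratio scaling the difference was 0.04 (adjusted p = 0.811). Between 3 and 21 d its mean stayed between 11.2 and 12.2 FPKM, and at 28 d it was 12.7 ± 1.08 FPKM (0.16, adjusted p = 0.0177). That difference turned to -0.19 after median-ratio scaling (adjusted p = 0.0801). With that scaling Tfam was lower at 3, 5, 7 and 14 d (-0.21 to -0.37, adjusted p between 0.00107 and 0.0467), also short of 1.5-fold, so no direction held across scalings. The intervals at 3, 7 and 14 d as deposited ran from -0.12 to 0.12 at the widest.

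Nrf1 (chr6:30047988-30153458, plus strand) had the lowest mean FPKM of the 10 messages at 0 d, at 1.10, 1.26, 1.66 and 1.38 FPKM, and overlapped Esrrb. It was 2.05, 1.66, 2.01 and 1.96 FPKM at 1 d and 2.13, 1.92, 2.00 and 2.08 FPKM at 3 d. The 3 d muscles were above every 0 d muscle, with a mean 1.51 times higher. On the log2(FPKM + 1) scale the difference was 0.37 (adjusted p = 4.54e-05), short of the threshold of 1.5-fold, and it passed when the values were rescaled to TPM (0.62). Adjusted p was also below the threshold at 1, 5 and 7 d (differences 0.27 to 0.32). After median-ratio scaling, adjusted p stayed below it at 1 d (0.21, 0.0227) and 3 d (0.24, 0.00634), and was 0.780 and 0.485 at 5 and 7 d. At 21 d Nrf1 was 1.34 ± 0.05 FPKM (SD, n = 4), with an interval of the difference from -0.14 to 0.14 as deposited and a difference of -0.18 after median-ratio scaling (adjusted p = 0.0410). The differences of 0.16 at 14 d and 0.13 at 28 d turned to -0.08 and -0.10 with that scaling, and none of the 4 had an adjusted p below the threshold.

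Perm1 had been 4.01 to 5.26 times as abundant as Tfam at 0 d, and was 0.11 to 0.40 times as abundant at 3 d and 0.24 to 0.36 times at 28 d. Against Esrra, Perm1 went from 1.91 to 2.06 at 0 d to 0.12 to 0.34 at 3 d. The share of fragments from the mitochondrial genome was 14.5% to 18.2% at 0 d and 12.2% to 17.1% at 1 d. From 3 d on it was 6.70% to 13.5%, below every 0 d muscle. Scaled without mitochondrial genes, Perm1 differed from 0 d by -3.88 at 3 d and -3.54 at 28 d (limma adjusted p = 3.05e-15 and 3.48e-14).

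**Figure D4:**
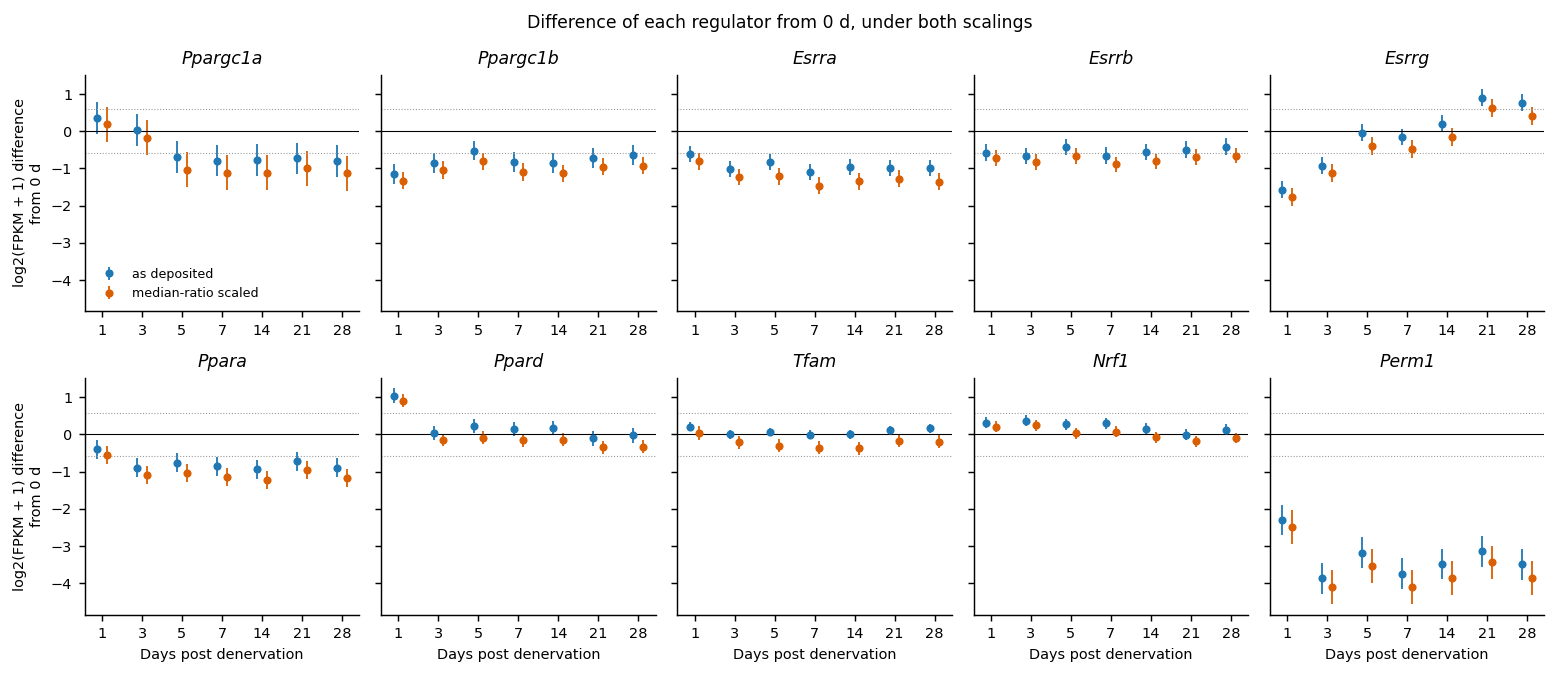
Difference of each gene from 0 d on the log2(FPKM + 1) scale at 7 time points, as deposited (blue) and after median-ratio scaling (orange), with 95% intervals from limma; dotted lines mark 1.5-fold. Perm1 lies between -2.30 and -3.86 as deposited, Esrra between -0.62 and -1.09, and the orange points of Tfam lie below 0 from 3 d on.

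Since FPKM is per length, the genes can be ranked within a time point. At 0 d the order of the means was Perm1 (51.3 FPKM), Esrra (25.8), Tfam (11.2), Ppargc1a (7.26), Esrrg (6.85), Ppara (3.51), Ppard (3.29), Ppargc1b (3.25), Esrrb (1.84) and Nrf1 (1.35). Ppargc1a and Esrrg overlapped, as did Ppara, Ppard and Ppargc1b, and Esrrb and Nrf1. At 28 d the order was Tfam (12.7), Esrra (12.6), Esrrg (12.2), Ppargc1a (3.71), Perm1 (3.64), Ppard (3.22), Ppargc1b (1.72), Nrf1 (1.57), Ppara (1.42) and Esrrb (1.16). The first 3 overlapped one another, and so did Ppargc1a, Perm1 and Ppard, and the last 4, so the order within each of these groups was not resolved. Perm1 had gone from the head of the order to the middle, and Esrrg had joined the leading group.

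Likeness over the 32 samples is given as Pearson r of log2(FPKM + 1), as a description with no test, since samples share time points and each r uses the same libraries. Esrra, Ppara and Perm1 were closest (r = 0.94 for Esrra with Perm1, 0.89 for Ppara with Perm1 and 0.89 for Esrra with Ppara). Ppargc1b went most with Esrrb (0.79), and Ppargc1a with Esrrg had r = -0.72. Tfam had no r above 0.34 with any of the others. Among 11931 genes with a mean of at least 1 FPKM, the genes most like Perm1 were Kcng4 (0.96), Gdap1 (0.96) and Asb18 (0.96). Those most like Esrra were Slc41a3, Kcnj12 and Pptc7 (0.92 each), and those most like Ppara were Coq10a, Gm4544 and Asb15 (0.88 to 0.89). Ppard was most like Ulk1, an autophagy kinase (0.96), Jmy (0.93) and Rrs1 (0.92). For Esrrg these were Crhr2 (0.93), Extl2 and Mum1l1 (0.92 each), and for Nrf1 they were Pum2 (0.93), Rbm15 (0.92) and Arhgap35 (0.91). Ppargc1a was most like Usp13, Nek7 and Ppp1r3c (0.89 to 0.90), Ppargc1b like Mrtfa, Cdc42ep2 and P2ry2 (0.84 to 0.87), Esrrb like Khdrbs3, Arhgef6 and Tnk2 (0.82 each) and Tfam like Mynn, Clk1 and Zfp354a (0.66 to 0.70).

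Many genes that ERR and PGC-1 are known to switch on were called lower from 3 d, how many depending on the scaling. Of 24 such oxidative genes, Esrrg included, the number called lower was 2 at 1 d (Esrrg and Mb), 18 after 3 d, 21 after 5 d, 17 after 7 d and 14 after 28 d. At 1 d, 21 of the 24 were lower at an unadjusted limma p below 0.05, a cut whose share of all genes was not computed. The median difference of the list at 1 d was -0.33, where that of all genes tested was 0.03. Up to 7 d, 0 were called higher (1 at an unadjusted p below 0.05 at each of 1, 3, 5 and 7 d, limma, and 0 with limma-voom), and 2 were at 28 d. Of all genes 2.49% were called lower after 1 d, 6.03% after 3 d, 3.86% after 5 d, and 4.1% after both 7 and 28 d. The median difference of the list was -0.80 at 3 d and -0.66 at 28 d on the log2 scale, where the median of all genes tested was 0.06 and 0.14. After median-ratio scaling 22 were lower at 3 d and 21 at 28 d, against 9.15% and 8.11% of all genes. As TPM (FPKM brought to one sum per library) 13 were lower at 3 d and 10 at 28 d, with 9 at 21 d, where TPM called 6.33%, 4.06% and 4.16% of all genes lower. TPM also called 1 of them higher at 1 d, against 12.1% of all genes. Besides Esrrg, Mb was the gene higher at 28 d. Ckmt2, the mitochondrial creatine kinase of muscle, was 777 ± 60.4 FPKM at 0 d, 182 ± 27.1 at 3 d and 129 ± 11.2 at 28 d (SD, n = 4), with differences of -2.09 and -2.59 (limma adjusted p = 6.81e-13 and 1.14e-14). Vegfa, an angiogenic factor induced by PGC-1α, was 58.7 ± 10.7 FPKM at 0 d and 17.5 ± 1.33 at 28 d. Mb, coding for the oxygen carrier myoglobin, took another course: it was 1805 ± 439 FPKM at 0 d, 351 ± 71.7 at 3 d and 4138 ± 186 at 28 d, lower at 3 d (-2.35, adjusted p = 9.33e-14) and higher at 28 d (1.23, adjusted p = 5.24e-08). The muscle fibre sum was below its 0 d range at 3 d, as was the slow and oxidative fibre sum. At 28 d the muscle fibre sum was 25340 to 28756 FPKM, again below 0 d, whereas the slow and oxidative fibre sum was above 0 d. Their part in these levels was not tested. In whole muscle, fewer cells of a type and less RNA per cell cannot be told apart.

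PPAR target genes split. Of 26, 10 were called higher and 0 lower at 1 d (limma; 3 lower at an unadjusted p below 0.05, and 1 lower with limma-voom), 9 higher and 4 lower at 3 d, and 2 higher and 7 lower at 28 d. Among all genes 6.34% were higher and 2.49% lower at 1 d, 13.2% and 6.03% at 3 d, and 14.2% and 4.1% at 28 d. Without 3 d sample a the 3 d counts were 7 and 5, and after median-ratio scaling the counts were 8 and 0 at 1 d, 7 and 6 at 3 d, and 1 and 13 at 28 d, where that scaling called 4.14% of all genes higher and 4.68% lower at 1 d, 9% and 9.15% at 3 d, and 6.57% and 8.11% at 28 d. As TPM 13 were higher at 1 d, and the counts were 13 and 5 at 3 d and 4 and 7 at 28 d. All genes moved with TPM as well, with 12.1% higher and 2.87% lower at 1 d, 22.5% and 6.33% at 3 d, and 28.6% and 4.06% at 28 d. The lipid droplet coat gene Plin2 went from 10.8 ± 0.75 FPKM at 0 d to 79.5 ± 10.9 at 3 d (2.76, adjusted p = 2.09e-15), and the thioesterase gene Acot2 from 9.32 ± 0.90 to 71.4 ± 27.8 (2.73, adjusted p = 1.36e-13). Lpl, coding for lipoprotein lipase, fell from 79.1 ± 6.88 to 17.9 ± 4.81 FPKM, and Acaa2, a thiolase of fat oxidation, from 125 ± 13.8 to 32.4 ± 5.54 (-2.12 and -1.93). At 28 d Plin5, another lipid droplet coat gene, was 2.13 ± 0.63 FPKM against 11.4 ± 0.69 at 0 d (-2.01), having been higher, at 33.9 ± 4.16, after 1 d (1.49, adjusted p = 5.28e-07), and Acaa2 was 37.0 ± 2.93 (-1.73). Fgf21, a secreted metabolic hormone, was 0.017 ± 0.034 FPKM at 0 d and 1.44 ± 0.65 at 28 d (adjusted p = 9.35e-07). Ucp2, a mitochondrial carrier, was 3.16 ± 0.06 and 6.04 ± 1.09 FPKM (0.75, adjusted p = 0.0182), a call lost after median-ratio scaling (0.44). Chosen after the values were seen, Pdk4, which restrains glucose oxidation, was 132 ± 12.2 FPKM at 0 d, 496 ± 78.1 at 1 d and 574 ± 80.4 at 3 d (1.89 and 2.101, adjusted p = 1.63e-08 and 7.01e-10).

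Of 36 coregulators and upstream signals of PGC-1, 5 were called higher and 3 lower at 3 d, and 7 and 4 at 28 d, where 13.2% of all genes were higher and 6.03% lower at 3 d, and 14.2% and 4.1% at 28 d, so the 3 d shares lay near those of all genes. After median-ratio scaling there were 4 higher and 6 lower at 3 d, and 1 and 5 at 28 d, and as TPM 10 and 2 at 3 d, and 16 and 3 at 28 d. All genes shifted with the scaling too, to 9% higher and 9.15% lower at 3 d and 6.57% and 8.11% at 28 d after median-ratio scaling, and to 22.5% and 6.33%, and 28.6% and 4.06%, as TPM. Prmt1, an arginine methyltransferase, went from 23.5 ± 1.65 FPKM at 0 d to 78.0 ± 9.02 at 3 d and 54.3 ± 1.51 at 28 d (1.68 and 1.18, limma adjusted p = 9.39e-18 and 2.96e-14), and Mybbp1a, a repressor that binds PGC-1α, from 14.9 ± 1.48 to 48.5 ± 1.76 at 3 d (1.64). Prkag3, the muscle γ3 subunit of AMP kinase, fell from 39.1 ± 6.52 to 6.33 ± 1.61 FPKM at 3 d (-2.46, adjusted p = 2.91e-15) and was 74.2 ± 8.01 at 28 d (0.91 as deposited, 0.54 and not called after median-ratio scaling). Sirt3, a mitochondrial deacetylase, was 3.24 ± 0.27 FPKM at 0 d and 1.58 ± 0.13 at 3 d (-0.72). Prkaa2, the α2 catalytic subunit of AMP kinase, was 44.7 ± 3.70 FPKM at 0 d and 12.5 ± 0.84 at 28 d (-1.76), and Lpin1, a coactivator of PGC-1α and PPARα, 32.1 ± 4.79 and 12.5 ± 1.25 (-1.28). Lpin1 had been higher before, at 90.0 ± 6.48 FPKM after 1 d (1.47, adjusted p = 1.01e-12) and 58.0 ± 7.26 after 3 d (0.84, adjusted p = 1.78e-08).

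Among 16 nuclear receptor partners, of which 15 could be tested, 2 were called higher and 4 lower at 3 d, and 0 and 5 at 28 d (3 higher at an unadjusted p below 0.05, and 0 with limma-voom). Of all genes 13.2% were higher and 6.03% lower at 3 d, and 14.2% and 4.1% at 28 d, so the share higher at 3 d was near that of all genes as deposited. After median-ratio scaling 1 was higher and 6 were lower at 3 d, against 9% and 9.15% of all genes, and 5 were lower at 28 d, against 8.11%. Rxrg, a retinoid X receptor that pairs with PPAR, fell from 21.9 ± 1.29 FPKM at 0 d to 6.58 ± 0.60 at 3 d and 3.55 ± 0.50 at 28 d (-1.60 and -2.34, limma adjusted p = 6.78e-15 and 2.86e-18). Nr4a1, an activity-dependent receptor, fell from 37.7 ± 8.08 to 10.6 ± 1.24 and 6.24 ± 0.54 FPKM (-1.72 and -2.40). Rora was 10.5 ± 2.13 FPKM at 0 d and 19.7 ± 2.59 at 3 d (0.86, adjusted p = 2.77e-07), and Nr1h2 was 13.8 ± 0.31 and 24.6 ± 3.06 (0.78, and 0.57 and not called after median-ratio scaling). Of 21 genes of the NRF and mitochondrial DNA machinery, 3 were higher and 1 lower at 3 d, and 2 and 0 at 28 d, with 1 lower at an unadjusted p below 0.05. After median-ratio scaling the counts were 1 and 2 at 3 d, and 0 and 0 at 28 d, where limma-voom called 1 and 1. As TPM 6 were higher at 3 d and 9 at 28 d. Of all genes, median-ratio scaling called 9% higher and 9.15% lower at 3 d, and 6.57% and 8.11% at 28 d. Limma-voom called 12.5% higher and 13% lower at 28 d, and TPM 22.5% higher at 3 d and 28.6% at 28 d. The shares as deposited stood near those of all genes (13.2% higher and 6.03% lower at 3 d, 14.2% and 4.1% at 28 d). Rnaseh1 was 3.26 ± 0.35 FPKM at 0 d, 6.72 ± 0.52 at 3 d (0.86) and 5.47 ± 0.42 at 28 d (0.61, and 0.30 after median-ratio scaling). Ssbp1, which binds single-stranded mitochondrial DNA, was 3.48 ± 0.27 and 6.08 ± 0.62 FPKM at 3 d (0.66, and 0.48 after median-ratio scaling), and Tfb1m was 2.13 ± 0.15 and 4.11 ± 0.39 at 28 d (0.71 and 0.43). Mterf2, a mitochondrial termination factor family gene, fell from 4.50 ± 0.68 to 1.57 ± 0.42 FPKM at 3 d (-1.10, adjusted p = 2.69e-09).

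**Figure D5:**
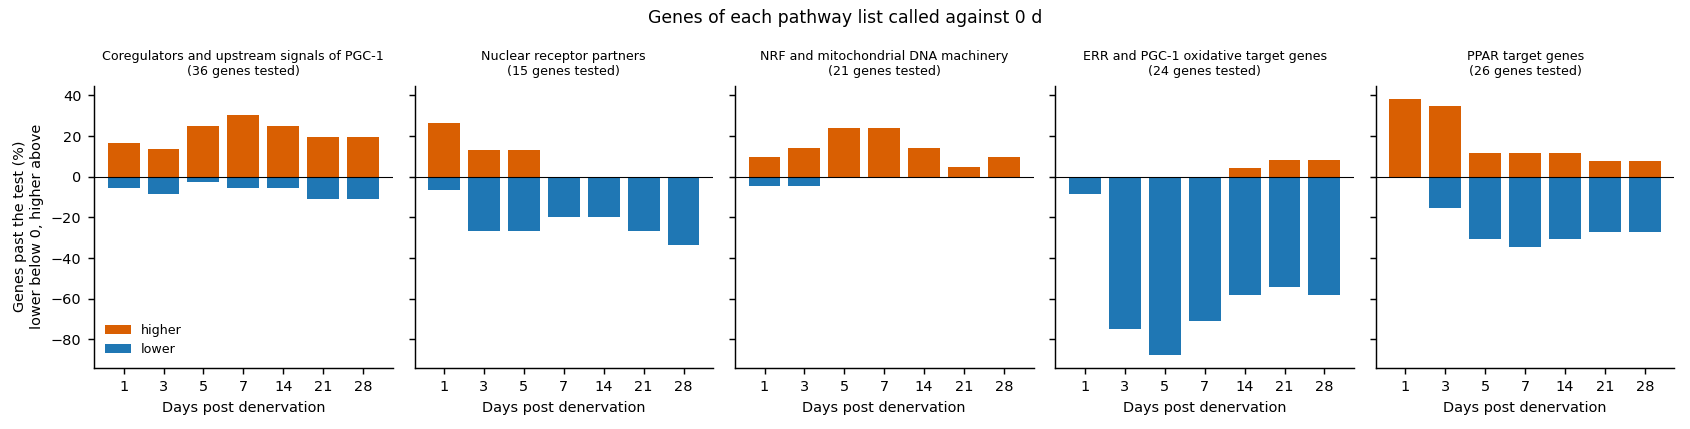
Share of the genes of each pathway list called against 0 d (%), higher above 0 and lower below, at 7 time points as deposited. The oxidative target list had 18 of 24 genes lower at 3 d and 14 at 28 d, and the PPAR target list had 10 of 26 higher at 1 d and 7 lower at 28 d.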

How the data were processed

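RNA-seq of 32 GAS muscles was used, 4 per time point, with groups taken from the labels. According to the submitters' processing notes, reads were processed with CASAVA, HISAT2 2.1.0 and DESeq2 on GRCm38. The deposited table holds FPKM per Ensembl gene, made by the authors. The counting program, annotation and strand setting are not given in the sources used here. Symbols, positions and merged exon lengths came from GENCODE M21, where 33356 of 33397 genes matched and 41 did not. FPKM times exon length gave whole fragments for 99.3% to 99.4% of values below 200 fragments (tolerance 0.02), which gave the depth of each library.

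FPKM was tested as log2(FPKM + 1) with limma 3.58.1 in R, with a variance trend, all 32 samples in 1 fit and genes of at least 0.1 FPKM in at least 4 samples. The 14, 21 and 28 d muscles were also compared together with 0 d, in a fit of those 16 samples. The series describes 32 different muscles but ties none to an animal, so p-values measure the spread between muscles. No 2 replicates agreed within sampling noise (chi-square per degree of freedom of 3.76 or more). Median-ratio scaling, quantile normalization, TPM, scaling without mitochondrial genes, another pseudocount, other filters, limma-voom with TMM factors on the recovered fragments and leaving out each library were alternatives. The script was tested on simulated data.

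The members and gene lists were chosen with earlier results of these data known. All 10 genes were named at every time point. For each, the 3 genes with the highest r were named, and of each list the 2 largest rises and 2 largest falls among called genes at 3 d and at 28 d. Where the list's largest fall or rise was itself one of the 10 genes, it was given with them. Cell type lists were summed per sample: fibroblast genes (6) to between 274 and 916 FPKM, endothelial genes (5) to 47.3 to 102, adipocyte genes (7) to 45.0 to 599, satellite cell genes (4) to 7.05 to 19.7, and smooth muscle and pericyte genes (4) to 103 to 203. Endothelial sums were 79.7 to 92.0 at 0 d, 47.3 to 68.2 at 3 d and 53.7 to 65.1 at 28 d. Smooth muscle and pericyte sums were 188 to 203, 103 to 138 and 126 to 138 at these times. Satellite cell sums were 7.05 to 7.85, 11.2 to 15.3 and 10.3 to 13.6. Fibroblast and adipocyte sums at 3 d and 28 d overlapped 0 d. The part of these cells in the levels above was not tested. Figures were drawn with matplotlib.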

Additional observations from a re-analysis of the deposited data

Results flagged for a closer look

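In 80 groups of 4 muscles (10 genes at 8 time points), 2 held a sample set apart from the other 3 by more than Dixon's 95% critical value for groups of 4. By construction chance marks about 5% of groups. At 3 d, Ppara was 2.31 FPKM in sample b and 1.14 to 1.19 FPKM in the other 3. Leaving that sample out made the step from 1 to 3 d a called fall (-0.64, limma adjusted p = 5.72e-05, against -0.49 with it). With all samples kept, the step was also called with a pseudocount of 0.1 (-0.73), as TPM (-0.59) and with limma-voom (-0.81). After median-ratio scaling it was not (-0.53). At 28 d, Perm1 was 4.26 FPKM in sample d and 3.37 to 3.52 FPKM in the other 3, and all 4 were below every 0 d muscle.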

How the results depend on the processing

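No paired analysis was possible because the columns carry no replicate number of the labels. The number of the 10 genes called stayed within 1.5 times its value under every alternative except the one with no fold threshold, where it was 9 at 1 d and 7 at 5 d against 0 d, 6 at 3 d against 1 d, 4 at 28 d against 3 d and 2 at 28 d against 7 d. Of all genes, 29.4%, 45.6%, 30.9%, 36.4% and 13.1% were called there without that threshold. Of the 121 pathway genes, 28, 49, 53, 50, 43, 40 and 43 were called with the fold threshold and 75, 93, 87, 89, 86, 80 and 86 without it after 1, 3, 5, 7, 14, 21 and 28 d, where 29.4%, 43.3%, 45.6%, 47.3%, 47.3%, 41.8% and 47.7% of all genes were called without it. Among single differences with adjusted p below 0.05, 1360 values under an alternative kept their direction and call, 63 became called, 20 lost the call and 3 reversed. The 3 were Tfam at 28 d, at -0.19 with median-ratio scaling, -0.14 with quantile normalization and -0.21 with limma-voom. The 63 include every uncalled difference under the setting with no fold threshold, where the call followed by construction. The 20 lost calls include Esrrg at 28 d with quantile normalization (0.48) and limma-voom (0.47), and Esrrg at 14 to 28 d together under both (0.33 and 0.36) and when scaled without mitochondrial genes (0.56). Leaving out 1 library changed other calls of Esrrb, which became called at 1 d without 0 d sample 4 (-0.65) or 1 d sample b (-0.63) and at 14 d without 0 d sample 4 (-0.64), 14 d sample a or 14 d sample d (-0.59 each). Without 0 d sample 4, Ppargc1b was also called at 5 d (-0.63). Perm1 at 28 d against 3 d became called without 3 d sample a (0.60, adjusted p = 0.0118).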

Other observations

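Exon overlap with other genes was small: besides Trmt112, the miRNA gene Mir6990 shares 91 bases with Esrra exons, 2.07% of their length, and no exon of the other 9 genes overlaps another annotated gene. Merged exon lengths run from 3836 bases for Ppara to 10282 bases for Nrf1.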
